A study of Mus musculus with 15 samples.

Results

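Transcripts of 10 neuropeptide genes that act in feeding and in the stress response (Agrp, Npy, Pomc, Cartpt, Hcrt, Pmch, Trh, Crh, Avp and Oxt) were followed through the brains of 15 mice. They were picked by gene symbol, from what the peptides are known to do, out of 43629 genes with a deposited count. All mice were wildtype C57BL/6J males, and RNA came from whole brain that had been frozen on isolation, 1 library per mouse. Food was always present for mice fed ad libitum (AL), whereas every-other-day (EOD) mice had free food on 1 day and none on the next, from 2 months of age. The labels call the EOD mice intermittent fasted, and they give 3 months as the age of the young and 24 months as that of the old mice. Each of the 4 groups (young AL, old AL, young EOD, old EOD) held 4 mice, except young EOD with 3, so that diet had lasted a short part of life in the young and nearly all of it in the old EOD mice. The feeding state of the EOD mice when the brains were taken was not stated for the brains themselves, although the study's tests in general followed a day with food. The question put to these transcripts is whether their levels differed with age, with diet, or with diet in a way that depended on age.

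The peptides belong to neurons that are few in number and sit mostly in the hypothalamus. In the arcuate nucleus, AgRP and NPY are made by neurons that drive eating, and the Pomc product alpha-MSH and CART by neurons that curb it. AgRP blocks the melanocortin receptors that alpha-MSH activates. Orexin, from Hcrt, and melanin-concentrating hormone, from Pmch, come from intermingled neurons of the lateral hypothalamus and act on arousal and feeding. TRH and CRH start the thyroid and adrenal axes, and vasopressin and oxytocin are released by large neurons of the paraventricular and supraoptic nuclei. NPY, CART, CRH and TRH are also made outside the hypothalamus, among other places in the cortex, striatum, amygdala and olfactory bulb, and Pomc is the hormone precursor of pituitary corticotrophs and melanotrophs.

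Total counts on genes ranged from 5198748 to 13610729 per mouse, with a median of 9886766, and the libraries had been run in 3 lanes. The third young AL mouse stood apart, with the largest total but the fewest genes detected, 17280 against 19054 to 20880. In the fourth old AL mouse pituitary hormones were high, with growth hormone (Gh) at 888 CPM (read counts relative to library size, scaled by TMM) and prolactin (Prl) at 72.4 CPM, against at most 14.9 and 1.33 CPM elsewhere. The label whole brain was checked against markers. Neuron, astrocyte, oligodendrocyte and microglia genes had counts in every group. The cerebellar granule cell markers Gabra6 and Cbln3 reached 13.2 and 28.2 CPM in the third old AL mouse and 4.55 and 10.1 CPM in the second old EOD mouse, and lay between 0 and 0.262 CPM and between 0 and 1.58 CPM in the other 13 mice. The 5 olfactory bulb markers summed to between 16 and 145 CPM. The part of the brain that entered each library thus cannot be read from the label alone, and in whole-brain RNA fewer cells of a type and less RNA per cell cannot be told apart.

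Of the 10 transcripts, Pmch with Hcrt and Avp with Oxt were the pairs of 1 brain region that varied together most (below), and the sequences that bear on them are shown first. RefSeq promoter windows (GRCm38.p6, from 250 bases before to 50 bases after the start) were found for 8 of the 10 genes. They are given 5′ to 3′ on the gene's strand, and both strands were searched for motifs, of which 3 are marked. The letters CCAAT and TGACG were also searched for and are not marked. CCAAT was in the Avp, Npy and Pmch windows and in 37.4% of all windows. TGACG was in the Cartpt and Trh windows and in 20.8% of all windows. Capitals mark the letters TATAAA of a TATA box, the letters CACGTG of an E-box and the letters TGACGTCA of a cAMP response element. Pmch is at chr10:88090822-88091121 (plus strand), Hcrt at chr11:100762882-100763181 (minus), Avp at chr2:130582539-130582838 (minus) and Oxt at chr2:130575919-130576218 (plus).
Pmch: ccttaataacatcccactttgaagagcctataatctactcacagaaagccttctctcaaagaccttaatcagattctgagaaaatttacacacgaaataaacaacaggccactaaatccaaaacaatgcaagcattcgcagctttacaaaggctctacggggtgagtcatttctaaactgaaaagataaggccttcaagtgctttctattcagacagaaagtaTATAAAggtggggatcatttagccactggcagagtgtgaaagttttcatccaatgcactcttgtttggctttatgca
Hcrt: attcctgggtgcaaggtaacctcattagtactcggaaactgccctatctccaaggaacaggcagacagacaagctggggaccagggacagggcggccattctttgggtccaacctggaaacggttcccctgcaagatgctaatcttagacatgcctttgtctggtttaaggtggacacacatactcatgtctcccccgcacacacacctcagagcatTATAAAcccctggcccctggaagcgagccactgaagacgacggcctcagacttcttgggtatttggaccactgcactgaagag
Avp: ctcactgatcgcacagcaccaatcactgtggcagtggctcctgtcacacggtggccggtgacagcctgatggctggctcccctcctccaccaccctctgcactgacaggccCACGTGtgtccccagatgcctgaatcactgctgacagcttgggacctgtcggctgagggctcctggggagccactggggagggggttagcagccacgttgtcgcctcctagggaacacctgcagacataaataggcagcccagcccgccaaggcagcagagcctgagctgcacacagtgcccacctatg
Oxt: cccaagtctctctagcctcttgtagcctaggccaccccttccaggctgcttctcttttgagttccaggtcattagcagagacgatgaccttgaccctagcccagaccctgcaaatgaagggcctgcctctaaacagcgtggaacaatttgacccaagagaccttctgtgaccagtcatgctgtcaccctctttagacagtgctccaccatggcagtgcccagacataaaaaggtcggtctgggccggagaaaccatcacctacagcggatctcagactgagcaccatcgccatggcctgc
TATAAA began 27 bases before the start of Pmch and 33 bases before that of Hcrt. The same letters stood in the Pomc window, 25 bases before the start, and in 13.6% of all 32851 windows. CACGTG, in the Avp window only among the members, was in 7.15% of all windows. TGACGTCA, in the Cartpt window only, was in 1.79%. A match describes the letters in the window and nothing more. Avp and Oxt are neighbours on chromosome 2 that point towards each other, and their mRNAs share a run of 127 identical bases, all coding, that crosses from the first to the second of 3 exons. It covers the span chr2:130581133-130582411 in Avp and chr2:130576328-130576715 in Oxt.
shared by Avp and Oxt: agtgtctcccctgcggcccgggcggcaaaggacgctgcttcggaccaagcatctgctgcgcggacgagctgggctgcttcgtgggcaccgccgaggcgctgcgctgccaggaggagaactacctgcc
Reads were 50 bases long. Of the 528 windows of that length in the Avp transcript, 78 (14.8%) were identical in Oxt, which is 16.0% of the 488 windows of Oxt. The authors counted reads with a mapping quality of at least 5, so that reads from such windows may have been left out, and the counts of both genes are uncertain to that extent. No other member shared a window with a gene on its own strand except Agrp, with 65 of 962 windows (6.76%) in the predicted gene Gm5914.

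Per length of transcript, levels spanned a wide range. On the RPKM scale (CPM per kilobase of exon) the median over 15 mice was 67.7 for Npy, 47.1 for Pmch, 11.1 for Trh, 10.2 for Cartpt, 5.08 for Avp, 4.43 for Crh, 1.62 for Oxt, 1.56 for Hcrt, 0.749 for Pomc and 0.475 for Agrp. Cartpt was above Avp in all 15 mice, Pmch above Trh in 13, and Crh above Oxt and Pomc above Agrp in 12 each. The remaining neighbours changed places from mouse to mouse. Npy was above Pmch in 9 mice, Trh above Cartpt in 7, Avp above Crh in 6, Oxt above Hcrt in 6 and Hcrt above Pomc in 11. In these whole brains the order within such pairs was not settled.

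**Figure D1:**
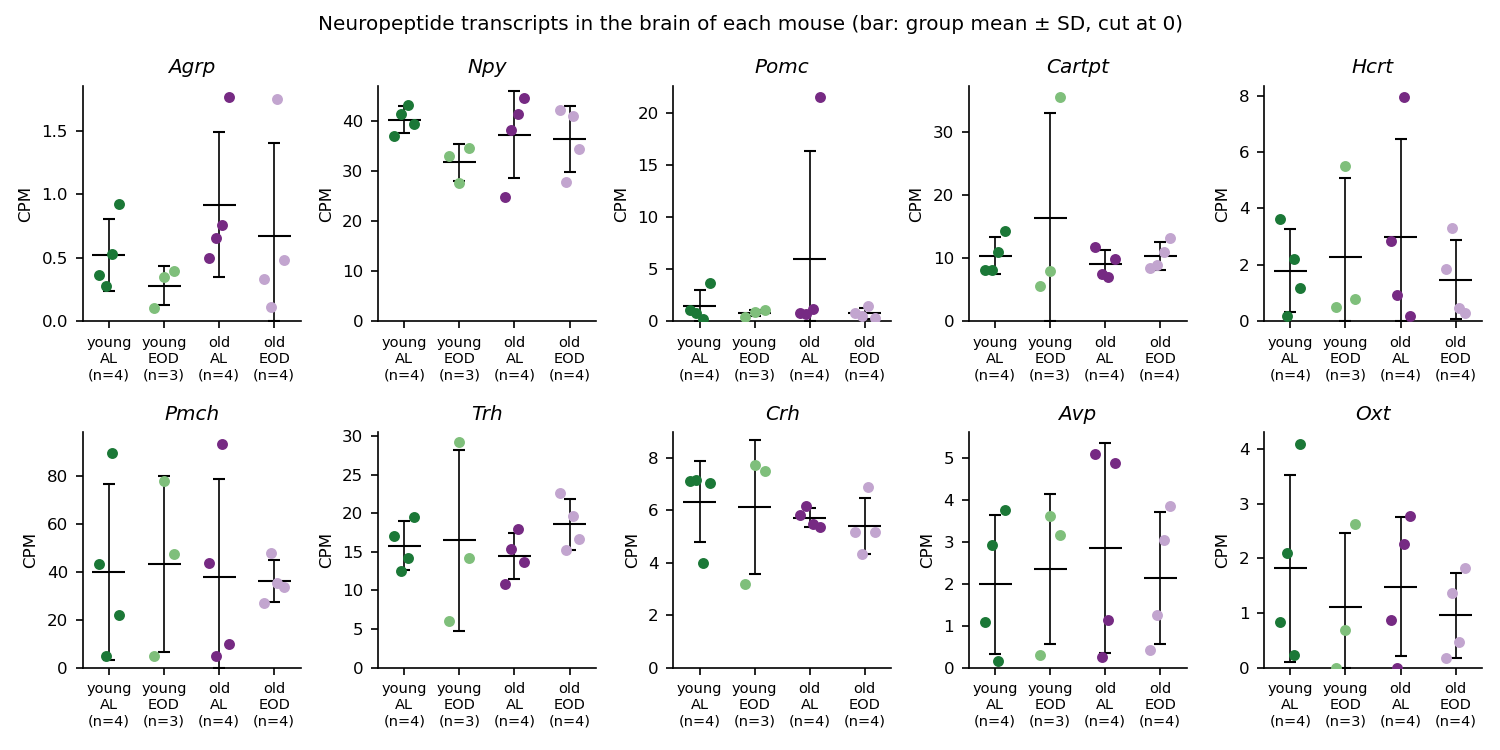
Level (CPM, linear axis from 0) of each of the 10 transcripts in each mouse, with 1 point per mouse, the group mean as a line and the SD as an error bar. Only for Npy do 2 groups compared lie apart (young AL against young EOD), and Pomc is far above all other mice in 1 old AL mouse, at 21.5 CPM.

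No member passed the test in any comparison. Counts were compared with edgeR's quasi-likelihood test over 15864 genes, with Benjamini-Hochberg adjustment and the study's threshold of FDR 0.1, and 9 members could be tested, because Agrp had too few counts. With age, 0 of 9 were called in AL mice, where 1.09% of all genes were called, 0 of 9 in EOD mice (0.29% of all genes), and 0 of 9 when the diets were averaged (2.3%). With diet, 0 of 9 were called in young mice, in old mice and on average, and 0 of 9 had an age effect that differed between diets. In those 4 comparisons 0.0% of all genes were called by edgeR, while 657, 409, 715 and 362 genes had an unadjusted p under 0.05. DESeq2 called 1 gene, no member, for diet in young mice and 0 in the other 3. Of the members, Pomc had an unadjusted p under 0.05 in 3 comparisons and Npy in 1. Groups that were compared did not overlap for 0 of 10 members with age in AL mice, where this held for 4.56% of all genes tested, 0 of 10 with age in EOD mice (9.04%), 1 of 10 with diet in young mice (4.45%) and 0 of 10 with diet in old mice (2.59%). In a fit that kept all 26269 genes with at least 1 count, edgeR called 1 of 10 members with age in AL mice (1.69% of those genes), 0 in EOD mice (0.381%), 2 with the diets averaged (2.49%), 0 with diet in young mice (0.099%), 1 with diet in old mice (0.103%), 1 with the ages averaged (0.247%) and 0 for the interaction (0.099%). Those members were Pomc and, for age averaged over diets, also Cartpt. The median log2 difference of the 9 members was -0.14 with age in AL mice, -0.14 with age in EOD mice, 0.01 with diet in young mice and -0.08 with diet in old mice, where the median over all genes was within 0.01 of 0 each time.

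**Figure D2:**
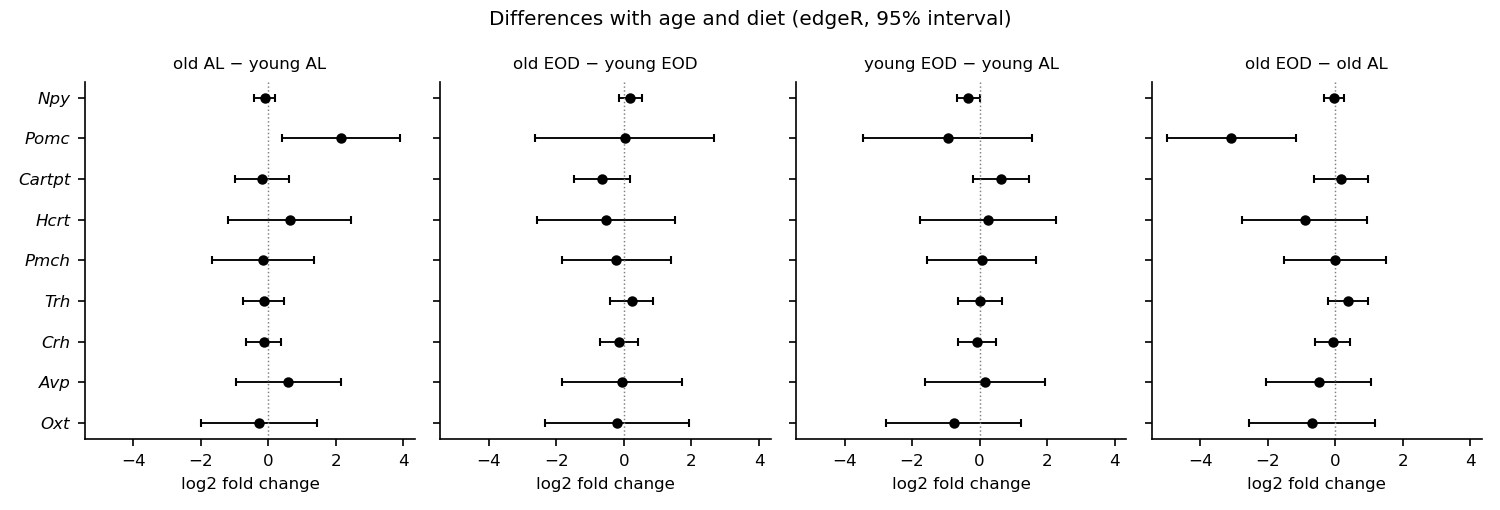
Log2 fold change (horizontal axis) of the 9 tested transcripts with its 95% interval from edgeR, with 1 panel for each of the 4 comparisons of single groups (age within a diet and diet within an age). Intervals are narrow for Npy, Crh and Trh and wide for Pomc, Hcrt, Pmch, Avp and Oxt, and apart from Pomc with age in AL mice and with diet in old mice, and Npy with diet in young mice, the intervals drawn include 0.

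Npy, which makes the most abundant appetite-stimulating peptide of the brain (chr6:49822710-49829507), was the only member whose values did not overlap between groups that were compared. It was at 37.1, 41.5, 43.4 and 39.4 CPM in young AL mice and at 33.2, 27.7 and 34.7 CPM in young EOD mice. All young EOD mice were below all young AL mice. The log2 difference was -0.34 (SE 0.16, 95% interval -0.67 to just under 0, edgeR FDR 0.996), so it was past 0.05 only before correction. Young mice of both diets were in lanes 1 and 2. With no overlap between the groups, the direction within a lane was fixed beforehand, so the values by lane are only a description. In lane 1 the AL mice were at 37.1 and 41.5 CPM and the EOD mouse at 33.2 CPM, and in lane 2 the AL mouse was at 43.4 CPM and the EOD mice at 27.7 and 34.7 CPM. With lane in the edgeR fit the log2 difference was -0.31 (SE 0.17, FDR 0.876). The striatal markers Drd2, Adora2a, Rgs9, Ppp1r1b and Gpr6 had log2 differences of -0.54 to -0.22 in the same comparison, and 0 of 5 were called (edgeR FDR 0.996 each). With diet in old mice, where the log2 difference of Npy was -0.03, these 5 markers had -0.38 to -0.23, and 0 of 5 were called. Their sum was 272 to 380 CPM in young AL and 207 to 300 CPM in young EOD mice, with counts of all 5 in both groups. Across the 15 mice Npy and this sum had r = 0.656 (permutation p = 0.00842, adjusted over 80 relations 0.225; rho = 0.743, p = 0.00241, adjusted 0.0643), with r of 0.55 without the 2 mice farthest from the median and 0.841 in lane 2. The part that the amount of striatum in a library played in the Npy values was not tested. In old mice Npy was at 24.9, 38.3, 41.4 and 44.7 CPM under AL and 42.2, 27.9, 41.1 and 34.5 CPM under EOD. There the diets overlapped over most of their range, with a log2 difference of -0.03 (95% interval -0.34 to 0.28) that ran from -0.19 without the first to 0.08 without the fourth old AL mouse. The diet difference was not shown to depend on age (log2 0.31, SE 0.22, edgeR FDR 0.9998). Averaged over diets, the age difference of Npy was 0.04 (95% interval -0.19 to 0.27), and -0.01 to 0.12 when each mouse was left out. The young diet difference was -0.40 to -0.25 when each mouse was left out.

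Agrp, the melanocortin antagonist made by the same arcuate neurons, was at the limit of detection. It had 1 to 11 counts in young mice and 1 to 21 in old mice, and its highest values, 1.76 CPM in the fourth old AL mouse and 1.75 CPM in the third old EOD mouse, were in 1 mouse of each old group. The other 13 mice lay between 0.103 and 0.92 CPM, and all compared groups overlapped. The annotated span of Agrp, chr8:105566698-105637393 on the minus strand, takes in long transcripts that run past several other genes, with Gm5914 on the same strand, and these counts may hold reads of such transcripts. Of the 962 windows of 50 bases in Agrp transcripts, 65 (6.76%) are Ctcf exon on the other strand. How many Agrp counts came from Ctcf transcripts was not tested.

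Pomc, the precursor of alpha-MSH and of ACTH (chr12:3954951-3960618), had the largest differences, and they rested on a single mouse. In young mice it was at 1.08, 0.733, 0.227 and 3.68 CPM under AL and 0.411, 0.86 and 1.05 CPM under EOD. In old mice it was at 0.746, 0.656, 1.14 and 21.5 CPM under AL and 0.754, 0.455, 1.47 and 0.289 CPM under EOD. The high value, 256 counts, belonged to the fourth old AL mouse, the one with pituitary hormones, and the other 14 mice had 3 to 44 counts. The log2 difference was 2.16 with age in AL mice (SE 0.84, edgeR FDR 0.38) and -3.08 with diet in old mice (SE 0.92, FDR 0.9999), and averaged over ages it was -2.01 with diet (SE 0.75, edgeR FDR 0.983), which became -0.52 without that mouse. Without it the first 2 differences were -0.79 (SE 0.74, edgeR FDR 0.797) and -0.13 (SE 0.79, FDR 0.9999), so the direction with age turned round. In the fit of every gene with a count, Pomc passed the threshold in both comparisons (edgeR FDR 1.09e-07 and 1.17e-12). The second highest value, 3.68 CPM in the fourth young AL mouse, came with 0.0837 CPM of Gh, 0.0837 CPM of Prl and the corticotroph regulator Tbx19 at 0.0837 CPM. Leaving out that young mouse raised the age difference in AL mice to 3.33 (edgeR FDR 0.145). The 13 pituitary genes summed to 1032 CPM in the fourth old AL mouse and to between 0.641 and 20.1 CPM in the other mice. Lhb was at 0 in every mouse, and Fshb and Gnrhr had counts only in the fourth old AL mouse. The part that pituitary tissue played in the Pomc values was not tested beyond leaving out that mouse.

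Cartpt, the precursor of the satiety peptide CART (chr13:99898484-99900683), was steady in 14 mice and high in 1. Levels were 8.07, 8.15, 11.03 and 14.2 CPM in young AL, 5.54, 7.91 and 35.5 CPM in young EOD, 11.7, 7.48, 6.999 and 9.92 CPM in old AL and 8.38, 8.88, 10.96 and 13.2 CPM in old EOD mice. The third young EOD mouse was above every other mouse, the second highest of which had 14.2 CPM, and its value rested on 270 counts. The log2 difference with diet in young mice was 0.64 (SE 0.40, edgeR FDR 0.996). Without that mouse it had the opposite sign, -0.66 (SE 0.28, edgeR FDR 0.983), and limma voom with sample quality weights gave -0.05. With age over both diets it was -0.42 (SE 0.28, FDR 0.593), and this passed the threshold only in the fit of every gene with a count (FDR 0.0648). The direction with age rested on the same mouse, since without it the difference was 0.23 (SE 0.18, edgeR FDR 0.681).

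The 2 transcripts of the lateral hypothalamus ranged more widely among mice of 1 group than between groups. Pmch (chr10:88091072-88092375), the precursor of melanin-concentrating hormone, was at 43.3, 4.95, 89.3 and 21.8 CPM in young AL mice and 4.83, 77.7 and 47.2 CPM in young EOD mice. It was at 43.5, 4.72, 93.2 and 10 CPM in old AL mice and 27.0, 47.9, 35.3 and 33.6 CPM in old EOD mice. The levels differed up to 19.7-fold within a group, whereas the group means lay between 35.9 and 43.2 CPM. Low values near 5 CPM occurred in 1 mouse each of young AL, young EOD and old AL, and the old EOD mice were close together, with an SD of 8.75 CPM against 36.5 to 40.7 CPM in the other groups. That difference in SD was not tested. The age difference averaged over diets was -0.19 on the log2 scale (95% interval -1.30 to 0.91), and the diet difference averaged over ages was 0.03 (-1.08 to 1.13), so that changes of nearly 2-fold in either direction lie within these intervals. Single mice set both signs. The age difference was -0.65 without the third old AL and 0.22 without the third young AL mouse, and the diet difference -0.34 without the second young EOD and 0.48 without the third old AL mouse.

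Hcrt (chr11:100761069-100762931), the precursor of the wake-promoting orexins, had 2 to 42 counts per mouse. It was at 3.62, 0.183, 2.19 and 1.17 CPM in young AL, 0.513, 5.50 and 0.788 CPM in young EOD, 2.86, 0.918, 7.94 and 0.168 CPM in old AL and 1.84, 3.30, 0.46 and 0.289 CPM in old EOD mice. Every group held mice under 1 CPM and mice above 3 CPM, and all compared groups overlapped. The diet difference in old mice was -0.90 (95% interval -2.76 to 0.95), the largest of Hcrt among the age and diet differences within a group, with edgeR FDR 0.9999. It was -1.60 without the second old EOD mouse and, with the sign turned, 0.21 without the third old AL mouse.

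Trh, the precursor of thyrotropin-releasing hormone (chr6:92242061-92244650), was among the steadier members. It was at 17.1, 12.5, 14.2 and 19.5 CPM in young AL, 6.06, 29.2 and 14.2 CPM in young EOD, 10.8, 15.3, 17.97 and 13.7 CPM in old AL and 22.6, 15.2, 19.7 and 16.6 CPM in old EOD mice. Both extremes of all 15 mice were young EOD mice. The diet difference in old mice was 0.38 on the log2 scale (SE 0.28, edgeR FDR 0.9999), and its interval, -0.21 to 0.97, leaves room for no change as well as for nearly 2-fold.

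Crh, which encodes the releasing hormone at the head of the adrenal stress axis (chr3:19693401-19695396), varied least after Npy. Levels were 7.11, 7.15, 4.004 and 7.03 CPM in young AL, 3.18, 7.74 and 7.49 CPM in young EOD, 5.84, 6.17, 5.49 and 5.38 CPM in old AL and 5.19, 4.32, 6.91 and 5.19 CPM in old EOD mice. The low young AL value belonged to the third mouse, the one with few genes detected, and the first young EOD mouse was lower still. The log2 difference averaged over diets was -0.14 with age (95% interval -0.53 to 0.25) and, averaged over ages, -0.07 with diet (-0.46 to 0.32). Leaving out each mouse gave -0.31 (without the first young EOD mouse) to -0.04 (without the third) with age, and -0.17 (without the third young EOD mouse) to 0.10 (without the first) with diet.

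The 2 posterior pituitary hormones were low and uneven. Avp (chr2:130580620-130582554), which encodes vasopressin, was at 1.08, 2.93, 0.151 and 3.76 CPM in young AL, 0.308, 3.61 and 3.15 CPM in young EOD, 5.10, 0.262, 1.14 and 4.88 CPM in old AL and 0.419, 1.25, 3.04 and 3.85 CPM in old EOD mice. Each group held 1 or 2 mice under 1.3 CPM and others above 2.9 CPM. Oxt (chr2:130576173-130577054), which encodes oxytocin, was at 0.844, 2.11, 0.227 and 4.10 CPM in young AL, 0, 0.688 and 2.63 CPM in young EOD, 0.87, 0, 2.27 and 2.77 CPM in old AL and 0.168, 1.37, 0.46 and 1.83 CPM in old EOD mice. The first young EOD and the second old AL mouse had no Oxt count, and both were also among the 4 mice lowest in Avp. The diet difference averaged over ages was -0.73 for Oxt (95% interval -2.10 to 0.64) and -0.16 for Avp (-1.34 to 1.02). For Oxt it was -1.69 without the third young EOD mouse and -0.33 without the fourth young AL mouse. For Avp it was -0.40 without the third young AL mouse and turned to 0.14 without the first young EOD mouse.

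Seen across all genes, Oxt, Hcrt, Pomc, Avp and Pmch were unusual in how much mice of 1 group differed. The biological coefficient of variation (BCV, the spread between mice of a group beyond counting error) was 1.13 for Oxt, 1.04 for Hcrt, 1.02 for Pomc, 0.951 for Avp and 0.903 for Pmch, which put these 5 at ranks 10, 11, 13, 19 and 28 of 15864 genes. The median of all genes was 0.112. Genes of like level had higher medians for the members with few counts, 0.298 for Oxt, 0.266 for Hcrt, 0.231 for Pomc and 0.240 for Avp. Pmch was the clearest case, since genes of like level had a median of 0.0913 and counting alone would give it a coefficient of variation of 5.38%, where 75.1% was found. Cartpt had a BCV of 0.449, Trh of 0.339, Crh of 0.228 and Npy of 0.16, with 95.9%, 91.9%, 82.6% and 69.3% of genes lower. Without the third young AL and the fourth old AL mouse, the BCV of Pomc was 0.532, at rank 108, and Oxt, Hcrt, Avp and Pmch were at ranks 8, 14, 21 and 22. Cartpt, Trh, Crh and Npy, at ranks 657, 1286, 2758 and 4877 over all mice, were then at 149, 402, 2174 and 3330, while their BCV was 0.489, 0.369, 0.197 and 0.159 and the median of all genes 0.0917.

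**Figure D3:**
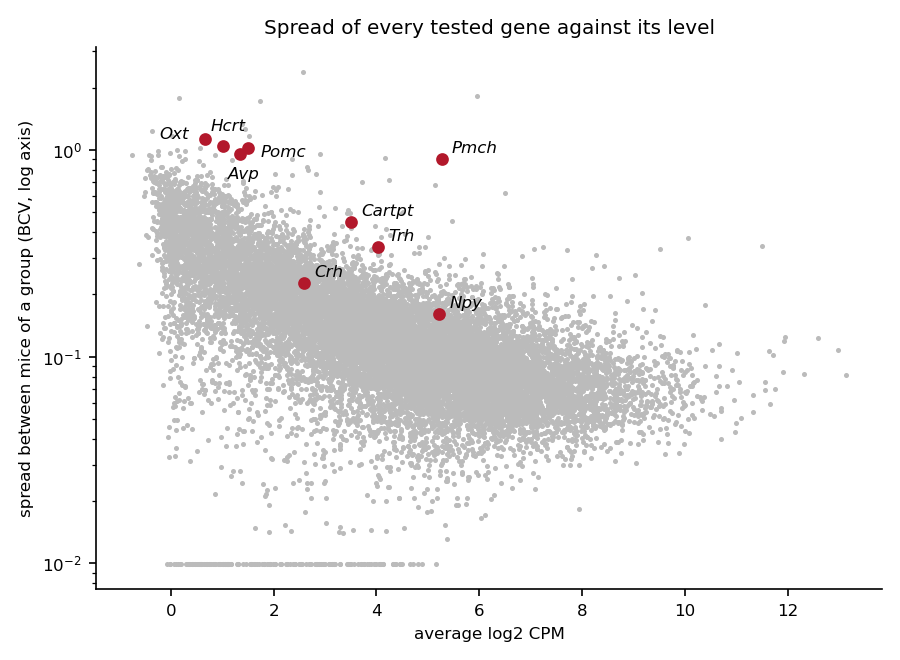
Biological coefficient of variation between mice of a group (vertical, log axis) against average log2 CPM (horizontal) for 15864 genes in grey, with the 9 tested members in red. Pmch, at a BCV of 0.903, lies far above genes of its level, Oxt, Hcrt, Pomc and Avp lie at the upper edge, and Crh and Npy lie within the cloud; the row of points at the bottom is the lowest value the estimate takes.

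The 3 highest correlations between members joined transcripts made in 1 hypothalamic region, although Pomc is also made in the pituitary. Over the 45 pairs of members, log2 CPM was correlated across the 15 mice with 100000 permutations. The highest value was that of Avp and Oxt (Pearson r = 0.76, permutation p = 0.00171, adjusted over 45 pairs 0.0592; Spearman rho = 0.674, p = 0.00718, adjusted 0.162). Hcrt and Pmch followed (r = 0.707, permutation p = 0.00328, adjusted 0.0592; rho = 0.707, p = 0.00406, adjusted 0.162), and then Agrp and Pomc (r = 0.689, permutation p = 0.00395, adjusted 0.0592; rho = 0.568, p = 0.0304, adjusted 0.379). No pair passed an adjusted p of 0.05. When each value was taken as the deviation from its group mean, Avp with Oxt (r = 0.803, adjusted permutation p = 0.0211) and Hcrt with Pmch (r = 0.756, adjusted 0.0252) did. Deviations from 4 estimated group means vary less freely than 15 separate values, so these 2 adjusted p may be too small.

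Without the 2 mice farthest from the median, r was 0.668 for Avp and Oxt (permutation p = 0.0128, adjusted 0.289) and 0.606 for Hcrt and Pmch (permutation p = 0.0318, adjusted 0.477). Within the 6 mice of lane 2, the only lane with as many, it was 0.721 and 0.641. Without the 4 mice lowest in Pmch, a choice made after the values had been seen, r of Hcrt and Pmch was 0.626 over 11 mice. Without the third young AL and the fourth old AL mouse, r was 0.727 and 0.686, each with an adjusted p of 0.227 over 13 mice. For Agrp and Pomc r was 0.498 without the 2 farthest mice and 0.251 in lane 2. The fourth old AL mouse, the one with pituitary hormones, was the highest in both. Without it and the third young AL mouse r of this pair was 0.632 (adjusted permutation p = 0.227). Reads from the identical stretch of Avp and Oxt printed above may have been left out of both counts. The part of that stretch in the first correlation was not tested. A pair of the same arcuate neurons, Agrp and Npy, had r = 0.512 (permutation p = 0.0499, adjusted 0.245; rho = 0.439, p = 0.102, adjusted 0.565), with 0.378 without the 2 farthest mice.

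**Figure D4:**
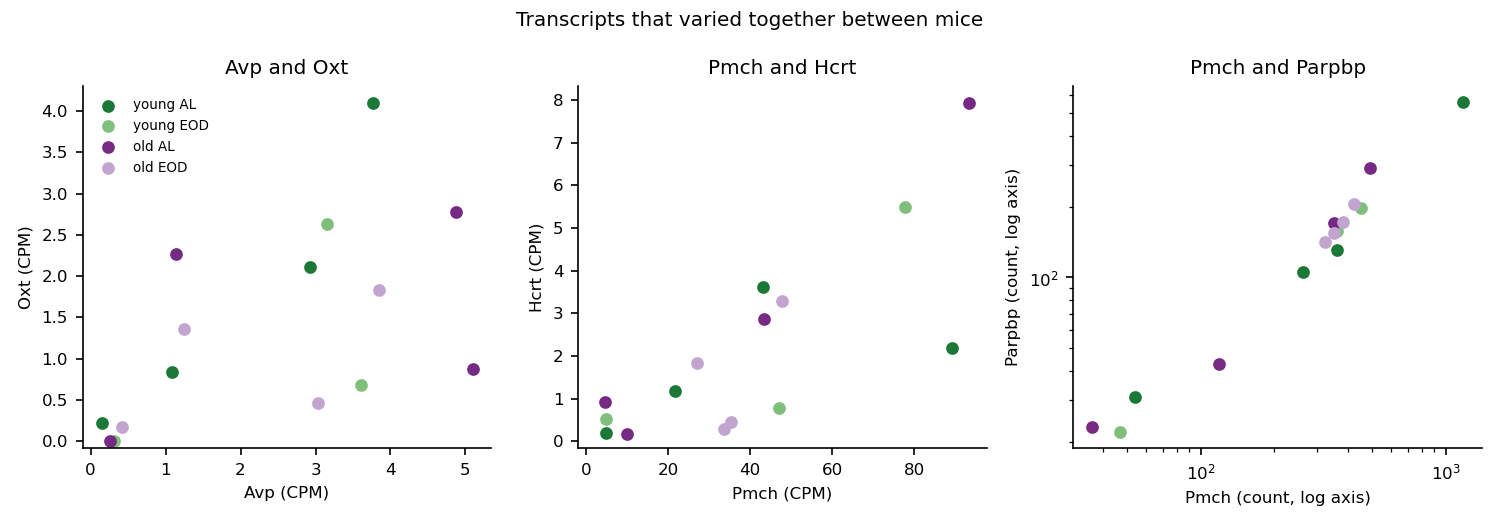
Each point is 1 mouse, coloured by group, with Avp against Oxt and Pmch against Hcrt in CPM and, at the right, the counts of Pmch against those of Parpbp on log axes. Mice of every group lie along each pattern, which is tightest for Pmch and Parpbp, at 36.1 to 63.9 Parpbp counts per 100 Pmch counts.

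The gene most like Pmch was its neighbour on the opposite strand. Among 13980 genes at an average level of 1 or more on the log2 CPM scale, Parpbp, known for a role in DNA repair, had the highest Spearman rho with Pmch, 0.982 over 15 mice. Its span, chr10:88091432-88146941 on the minus strand, takes in the last 944 bases of the Pmch span, and 339 of the 700 windows of 50 bases in the Pmch transcript (48.4%) are Parpbp exon on the other strand. The counts of Parpbp were 22 to 556 per mouse, which was 36.1 to 63.9 per 100 Pmch counts. The authors counted with the reverse-strand setting. How many of the Parpbp counts came from Pmch transcripts was not tested, and the Parpbp values cannot be told apart from those of its neighbour here.

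For the other members the 3 likest genes had lower values of rho, and since each was the highest of 13980, no p is given. After Parpbp, Pmch was most like Gm13709 (0.879) and Adgrg2 (0.864). Hcrt was most like Zscan21, Cgnl1 and Amot (0.832 to 0.811), Avp like Shld1, Esco1 and Otp (0.829 to 0.782) and Oxt like Sbds, Rrs1 and C77080 (0.89 to 0.842). Otp is a transcription factor needed for vasopressin and oxytocin neurons to form. Npy was most like Phactr3, Dact2 and Ppp1r11 (0.889 to 0.871), Pomc like Klhdc7a, Zfp276 and Cstb (0.832 to 0.779), Cartpt like Lrrc2, Zfp287 and Llph (0.843 to 0.779) and Agrp like Pald1, Cyp2j12 and Gm26593 (0.846 to 0.8). Trh was most like Kcnj5, Npl and Peli2 (0.818 to 0.782) and Crh like Mad2l1, Zfp619 and Nek8 (0.854 to 0.811). Only 5 of these 30 genes were again among the 3 likest when deviations from group means were used, so most of the names depend on how the likeness was measured.

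Levels were then set beside the markers of brain regions, a comparison added after the levels had been seen. Of 80 correlations between the 10 members and the summed markers of 8 tissues or regions, 1 passed, that of Trh with the 5 olfactory bulb markers Eomes, Doc2g, Cdhr1, Tbx21 and Th (r = 0.802, permutation p = 8e-05, adjusted over 80 relations 0.0064; rho = 0.814, p = 0.00035, adjusted 0.028). The r of Trh was 0.79 without the 2 mice farthest from the median, 0.836 without the third young AL and the fourth old AL mouse and 0.557 in the 6 mice of lane 2. The next by rho were Pmch with the 5 cerebellar markers (r = 0.603, permutation p = 0.0116, adjusted 0.232; rho = 0.754, p = 0.00175, adjusted 0.0643), with r of 0.672 without the 2 farthest mice, and Npy with the striatal markers, given above. The cerebellar sum is mostly Cbln1 and Car8. In the third young AL mouse it was 53.0 CPM while the granule cell markers Gabra6 and Cbln3 were at 0. The sum therefore says little about the amount of cerebellum. The young EOD mouse with the lowest Trh, 6.06 CPM, had the lowest marker sum, 16 CPM, and the young EOD mouse with the highest Trh, 29.2 CPM, had a sum of 117 CPM, the second highest. The sums ranged from 31.3 to 145 CPM in young AL, 16 to 117 CPM in young EOD, 21.1 to 99.9 CPM in old AL and 39.1 to 108 CPM in old EOD mice. All 5 markers had counts in each group. The part that the amount of olfactory bulb in a library played in the Trh values was not tested.

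**Figure D5:**
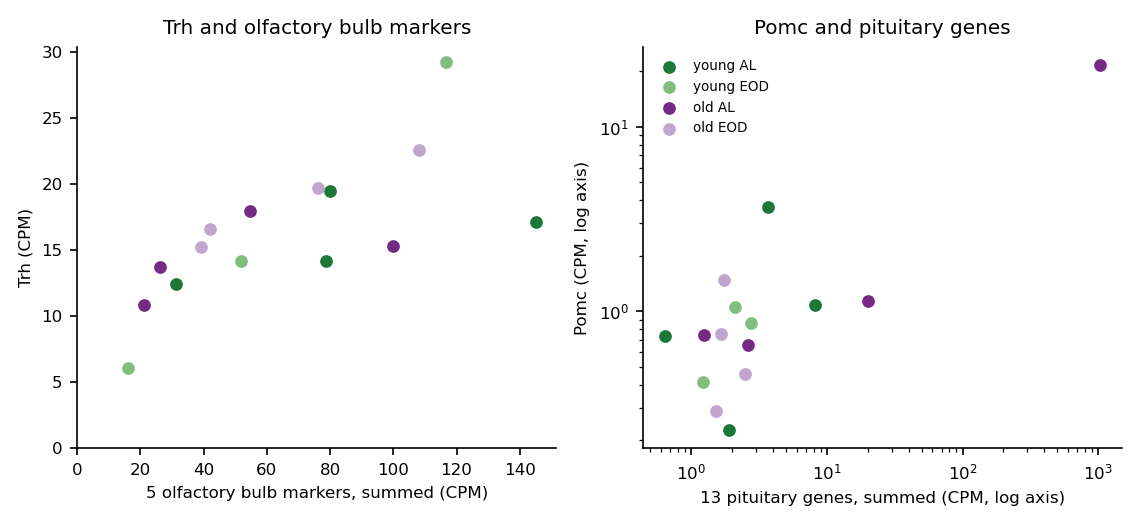
Each point is 1 mouse, coloured by group, with Trh (CPM) against the sum of 5 olfactory bulb markers (CPM) at the left and Pomc against the sum of 13 pituitary genes at the right, both log axes. Trh rises along the olfactory bulb markers in mice of all groups, whereas Pomc and the pituitary genes are jointly high in a single old AL mouse.

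Pomc and the 13 pituitary genes had r = 0.836 (permutation p = 0.00668, adjusted 0.225; rho = 0.625, p = 0.015, adjusted 0.301), which was 0.387 without the 2 farthest mice. The 19 hypothalamic regulators are a list of transcription factors and other genes of hypothalamic regions. Their summed level had no correlation with a member that passed, and r was between -0.35 for Npy and 0.428 for Oxt. Their sum ranged from 311 to 442 CPM in young AL, 336 to 426 CPM in young EOD, 375 to 402 CPM in old AL and 326 to 480 CPM in old EOD mice, and all 19 had a count in some mouse.  The sum is dominated by Hap1 and Peg10, which are not limited to the hypothalamus, so it says little about the other regulators. Otp, 1 of the 19, was among the 3 genes most like Avp (rho = 0.782).

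No gene of the lists of receptors, processing enzymes and other genes around the peptides passed the test. Of 19 receptors of these peptides 17 could be tested and 0 were called in any of the 7 comparisons. The smallest p was that of the presynaptic Y2 receptor of NPY, Npy2r, with age in EOD mice (log2 0.41, SE 0.15, edgeR FDR 0.726). Of 14 genes that process peptide precursors 13 were tested and 0 called, with the smallest p for the convertase Pcsk2 with age averaged over diets (log2 -0.14, SE 0.06, edgeR FDR 0.342). Of 7 genes that degrade or bind the peptides 0 were called. The TRH-degrading enzyme Trhde came nearest (log2 -0.22 with age over both diets, SE 0.08, edgeR FDR 0.284). Of 14 genes of leptin, ghrelin, insulin, glucocorticoid and thyroid hormone sensing 12 were tested and 0 called, and the mineralocorticoid receptor Nr3c2 had the smallest p (log2 0.24 with EOD over both ages, SE 0.08, edgeR FDR 0.983). Of 22 other hypothalamic peptides 8 were tested and 0 called, and neurotensin, Nts, had the smallest p (log2 -0.49 with EOD in young mice, SE 0.17, edgeR FDR 0.996). Of the 19 hypothalamic regulators 13 were tested and 0 called, with Lhx9 nearest (log2 0.66 with EOD over both ages, SE 0.21, edgeR FDR 0.983). In the fit of every gene with a count, 5 genes of these lists passed in at least 1 comparison and are named for that reason: Trhr (lowest edgeR FDR 0.0413), Pcsk1n (0.00184), Pdyn (0.0493), Peg10 (0.00186) and Lhx9 (0.000164).

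Among the marker lists of tissues and cells, the test over 15864 genes made calls in 2 lists and with age only. In AL mice, Gh (log2 7.84, SE 1.63, edgeR FDR 0.0187) and Prl (log2 5.76, SE 1.44, FDR 0.0779) were called higher in old mice, 2 of 3 pituitary genes tested, and both values rest on the fourth old AL mouse. The myelin gene Mbp was higher in old AL than in young AL mice (log2 0.39, SE 0.09, edgeR FDR 0.0515). Averaged over diets, Mbp (log2 0.29, FDR 0.0346) and the microglial receptor Csf1r (log2 0.20, SE 0.05, FDR 0.0605) were higher in old mice, 2 of the 10 genes of neurons and glia. In that test no gene was called by edgeR among the markers of choroid plexus, cerebellum, striatum, cortex, thalamus or olfactory bulb. The nearest in the lists of choroid plexus, cerebellum, striatum, thalamus and olfactory bulb were Ttr with age over both diets (edgeR FDR 0.302), Cbln3 with age in AL mice (FDR 0.176), Ppp1r1b with diet over both ages (FDR 0.983), Tcf7l2 with diet over both ages (FDR 0.983) and Eomes with age in AL mice (FDR 0.65). In the fit of every gene with a count, genes of all 6 of these lists passed, with age, diet and the interaction. The lowest edgeR FDR there was 6.96e-14 for Ttr and 6.52e-19 for Cbln3 with age, 3.64e-05 for Ppp1r1b and 4.95e-05 for Tcf7l2 with diet over both ages, 1.01e-08 for Cdhr1 with age in AL mice and 0.0441 for Tbr1 with age over both diets. Cbln3 exceeded 1.58 CPM only in the third old AL mouse (28.2 CPM) and the second old EOD mouse (10.1 CPM). Its SE with age in AL mice was 0.43 in that fit and 1.24 in the test over 15864 genes. The SE of Ttr with age over both diets was 0.058 and 0.195, so these low FDRs depend on the fit. Adora2a (0.000732 with diet over both ages), Prkcd (0.00016 for the interaction) and Eomes (2.89e-05 with age in AL mice) also passed in that fit. In young mice alone, Ppp1r1b (0.00229) and Adora2a (0.0743) passed with diet in the fit of every gene. In the test over 15864 genes both had an edgeR FDR of 0.996 there.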

How the data were processed

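Whole-brain RNA of 15 mice was sequenced as single reads of 50 bases. The authors aligned reads to GRCm38 with STAR (version not given in the sources used here), took the gene models of Ensembl release 79, counted with featureCounts 1.5.0-p1 (mapping quality of at least 5, reverse-stranded, primary alignments) and deposited counts per gene, not normalized.

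Symbols were matched by Ensembl identifier. All genes passing filterByExpr (15864) were fitted with 4 group means in edgeR 4.0.16 (R 4.3.3; TMM, quasi-likelihood, Benjamini-Hochberg, FDR under 0.1). SE is the log2 fold change over the root of F. BCV used a prior of 1 degree of freedom, and log2 CPM a prior count of 2. Nothing in the labels says how the mice were housed or processed beyond 1 mouse per library, and p-values measure the spread between these mice. At counts under 50, as for Pomc, Hcrt, Avp and Oxt in most mice, counting error is large. Alternatives included DESeq2 1.42.0 and limma 3.58.1 voom. Scripts were tested on simulated counts. Promoters came from RefSeq and transcripts from GENCODE, both GRCm38. The members, gene lists and tests were chosen with earlier results of these data known. The genes named are the members, from each other list those past FDR 0.1 or else the 1 with the smallest p, the 3 likest genes of each member, and pituitary genes as a check. The old mice are 24 months of age by their labels, and the study's measurements began at 21 months. The value of 1 marker gene is not reported here.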

Additional observations from a re-analysis of the deposited data

Results flagged for a closer look

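In each group of 4 mice the highest and the lowest value of each member were set against the rest of the group. A mouse was flagged when its gap to its nearest neighbour exceeded Dixon's 95% critical value, as a share of the range in log2 CPM. This held in 2 of 30 groups, where chance gives about 1 group in 20, so the number found is near that of chance. Pomc in the fourth old AL mouse, at 21.5 CPM (256 counts), was far above the other old AL mice, which lay between 0.656 and 1.14 CPM, and the gap was 0.864 of the range. The same mouse had 888 CPM of Gh. Crh in the third young AL mouse, at 4.004 CPM (53 counts), was below the other young AL mice, which lay between 7.03 and 7.15 CPM, and the gap was 0.971 of the range. That mouse had the largest total count and the fewest genes detected. Groups of 3, and with them the high Cartpt and Trh values in young EOD mice, were not examined in this way.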

How the results depend on the processing

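Of 179 recounts of called members under other settings, 175 gave 0. In the fit of every gene with at least 1 count, 1 member was called for age in AL mice (Pomc), 2 for age averaged over diets (Pomc and Cartpt), 1 for diet in old mice (Pomc) and 1 for diet averaged over ages (Pomc), and leaving out each mouse in turn gave 0 to 0 throughout. Of 1595 alternative log2 differences of members, 1415 kept their sign and their side of the threshold. Another 175 changed sign without passing it, 5 came to pass it and 0 reversed past it. All 230 alternative group levels lay within 1 SD. Where a mouse was left out this was fixed beforehand, since dropping 1 mouse from so small a group moves its mean by less than its SD. For those levels the count therefore does not show whether they depended on single mice.

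Counts over all genes moved more. For age in AL mice 444 were called with every gene, 266 with DESeq2, 86 with only the 2 groups compared and 102 to 221 when each mouse was left out, lowest without the third old AL mouse. For age in EOD mice the counts were 100, 73 with DESeq2, 125 with voom, 79 without the third young AL and the fourth old AL mouse together, and 19 to 76 leaving out each mouse, lowest without the first young EOD mouse and highest without the third young AL mouse. For age averaged over diets they were 653 with every gene, 229 at an FDR of 0.05, 237 with lane in the fit and 216 to 425 leaving out each mouse. For diet in young mice 26 were called with every gene and 1 with DESeq2. For diet in old mice these were 27 with every gene, 2 with voom and 2 with lane. Every gene gave 65 for diet averaged over ages and 26 for the interaction. The larger number of genes changes both the adjustment and the prior of the spread, and the cause of the other shifts was not tested.

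With the replicate block 0 members and 155, 35 and 250 genes were called for age in AL mice, in EOD mice and on average. Deviations of same-numbered mice correlated at -0.0266 on average over 21 pairs (from -0.113 to 0.113), so the numbers were not taken as pairs. With deviations from group means, 2 pairs of members passed instead of 0, with r of 0.803 for Avp and Oxt and 0.756 for Hcrt and Pmch, and 5 of the 30 likest genes were named again. The adjusted p of those 2 pairs may be too small, because estimated group means had been taken out. Depth limits Agrp (1 to 21 counts), Hcrt, Avp, Oxt and Pomc.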

Other observations

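The mice highest in 1 hypothalamic transcript were not the highest in all. Pmch was at 89.3 CPM in the third young AL mouse, the second highest of 15, which had at the same time the lowest Avp, 0.151 CPM, and the lowest Pomc, 0.227 CPM, of all mice. The third old AL mouse had the highest Pmch, 93.2 CPM, and the highest Hcrt, 7.94 CPM, together with 1.14 CPM of Avp and the most cerebellar marker signal, 114 CPM summed over 5 genes against 30.6 to 60.2 CPM in the other mice. The first young EOD mouse was the lowest or tied lowest of 15 in Agrp, Cartpt, Trh, Crh and Oxt, with 20253 genes detected. The striatal genes Ppp1r1b and Adora2a had log2 differences of -0.34 and -0.46 with EOD averaged over ages (edgeR FDR 0.983 each), and 4 of the 5 striatal markers had an unadjusted p under 0.05 in that comparison, where 715 of 15864 genes did.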
